A study of Homo sapiens with 16 samples.

Results

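Regions of the genome that kept an RNA peak in every list named for wild-type PABPC1, with and without arsenite, and had none in either list named for K512R PABPC1 with arsenite were described. They were selected on the presence of peaks in 6 of the 8 lists, so their presence and absence in those lists is a description and carries no test. There were 479 such regions among 36802 regions in all, and among 12803 that had a peak in all 4 WT and WT-AS lists, called WT-constant here. The lists come from a study by RNA immunoprecipitation and sequencing of H1299, a human lung carcinoma cell line, in cells that stably expressed Myc-tagged PABPC1. By their names they cover 4 conditions with 2 lists each: K512R with sodium arsenite (K512R-AS), K512R untreated, wild type with arsenite (WT-AS) and wild type untreated (WT). K512R replaces a lysine by arginine, and arsenite was given at 500 µM. All cells carried the tagged protein. The sources used here do not give the promoter that drove it, the number of clones or the level of the endogenous PABPC1.

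For 6 of the 8 lists the sample record gives another condition than the name. By the record all 8 lists come from wild-type cells: the K512R-AS lists are input RNA of arsenite-treated cells, the K512R lists the immunoprecipitate of arsenite-treated cells, the WT-AS lists input RNA of untreated cells and the WT lists the immunoprecipitate of untreated cells. Under that reading the 479 regions had peaks in both kinds of library of untreated cells and none in the input of arsenite-treated cells. Which reading is right was not settled, and the lists are called by their names below. Nothing in the labels says whether the lists of a pair came from separate cultures. The other 8 samples of the series were not analysed here.

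PABPC1 is the main cytoplasmic poly(A)-binding protein. It coats the tails of mature mRNAs, protects them from decay and helps translation to start by bridging the tail to the cap. Arsenite is an oxidative stressor that stops most translation initiation, after which stalled mRNAs and their proteins, PABPC1 among them, gather in stress granules. SUMO is a small protein that is attached to lysines of other proteins, and an arginine in the lysine's place cannot carry it. The title of the series concerns SUMO modification of PABPC1 and U-rich mRNAs in these granules.

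The lists held between 19953 and 25111 peaks, and the K512R-AS lists, with 19953 and 20971, were close in length to the WT-AS lists, with 20309 and 21160. Each peak has a score by the authors' caller, whose unit is not stated. Medians and shares by percentile rest on its rank within a list. Raw scores are printed as deposited, and no source says whether they compare between lists. Where WT-AS is called lower or higher than WT at a named member, this holds in raw scores and in percentiles. A percentile of 100 is the best score of a list, and 8.17% to 11.0% of a list's peaks were at 3100 or more. Read depth is unknown. All positions are hg19, counted from 1, and regions are given by position because no annotation or genome sequence of that build was used here.

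The 479 members were 3.74% of the WT-constant regions. Another 880 WT-constant regions had a peak in 1 K512R-AS list, 349 of them in the first alone and 531 in the second alone, and 11444 had one in both. Dropping the requirement on 1 list can only keep or raise the count. It came to 1010 without the second K512R-AS list and 828 without the first. Without the first WT-AS list it was 878, and without the second 733. Without the first WT list it was 595, and without the second 591. Among the 3993 regions in 3 of the 4 WT and WT-AS lists, just outside the rule, 881 (22.1%) had no K512R-AS peak.

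Most members were not missing from K512R cells as such, by the names of the lists. The K512R lists without arsenite were not part of the rule, and 391 members (81.6%, exact 95% binomial interval 77.9 to 85.0) had a peak in both of them. A further 70 (14.6%) had one in 1 of them and 18 (3.76%, 2.24 to 5.87) in neither. Of the 11444 WT-constant regions held by both K512R-AS lists, 10872 were in both K512R lists and 1.06% (0.878 to 1.26) in neither. The regions in 1 K512R-AS list lay between, with 86.7% in both K512R lists. List by list, 88.3% and 89.6% of members were in the K512R lists, against 96.6% and 97.3% of the regions held by both K512R-AS lists. These sets were not matched for score. In the mirror pattern described below, the WT lists, left out of its rule, held 384 and 382 of 447 regions. The K512R lists held 423 and 429 of the 479 members. Regions are not replicates, and the intervals here and below cover counting error only.

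Members were weakly scored, and most of all in the WT-AS lists. Their median percentile was 55.1 and 55.8 in the K512R lists that held them, 21.7 and 24.1 in the WT-AS lists, and 43.1 and 44.1 in the WT lists. The WT-AS values are the lowest, and the replicates of each pair differ by less than the pairs do. The WT-constant regions in both K512R-AS lists had medians of 71.4 and 72.5 in the K512R lists, 65.7 and 67.1 in the WT-AS lists, and 69.1 and 69.1 in the WT lists. Their medians thus moved little between pairs, while those of members moved more. Scores under 20, were found in 19.0% and 17.1% of the members in the WT-AS lists, and in 2.01% and 2.11% of the regions held by both K512R-AS lists. Regions in 1 K512R-AS list had a median percentile of 25.2 or 23.6 in the K512R-AS list that held them.

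**Figure D1:**
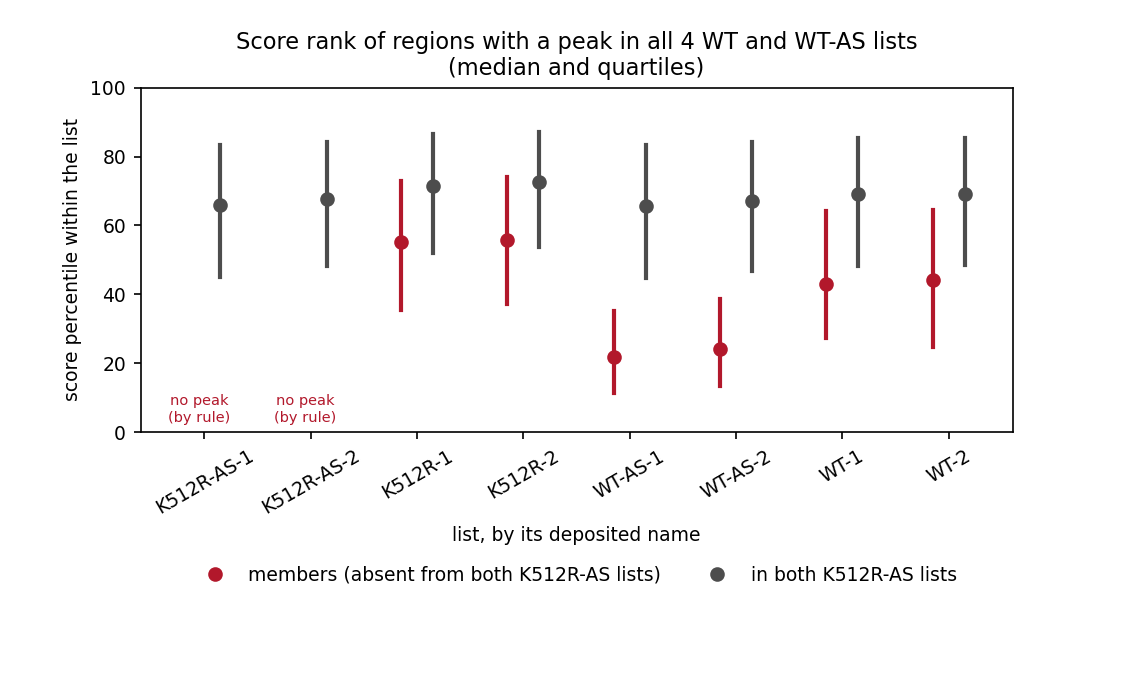
Score percentile within each list (vertical axis, 100 is the best score) for the 479 members and the 11444 WT-constant regions held by both K512R-AS lists, by list along the horizontal axis. Points are medians and lines span the quartiles. Members have medians of 21.7 and 24.1 in the WT-AS lists and 55.1 and 55.8 in the K512R lists, and have no K512R-AS peak by the rule.

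Absence from the K512R-AS lists followed the score. Each WT-constant region was placed by its poorest percentile over the 4 WT and WT-AS lists. Where that was under 10, 191 of 1284 regions (14.9%) were members, and from 10 to 20 it was 127 of 1321 (9.61%). Between 40 and 50 it was 20 of 1330, and from 90 upwards 3 of 1083 regions (0.277%, 0.0572 to 0.807). The share in 1 K512R-AS list was 1.57% in the top class and 19.0% in the lowest. Every percentile lay above 20 in 161 members (33.6%), above 50 in 36 (7.52%) and above 75 in 14 (2.92%), where 79.7%, 48.5% and 23.1% of the WT-constant regions lay. The members are thus mainly regions with at least 1 weak WT or WT-AS peak, plus a small set of strong ones.

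**Figure D2:**
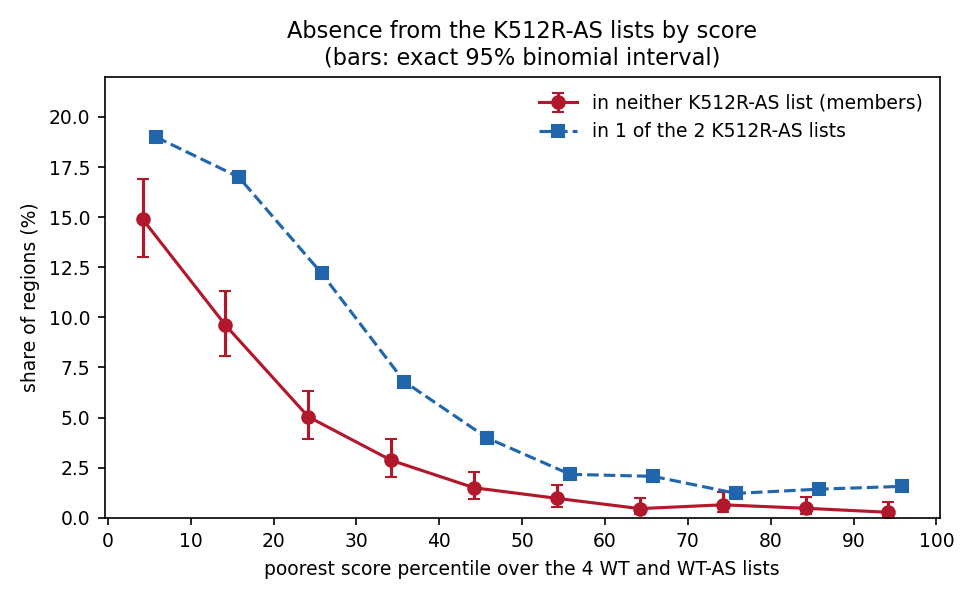
Share of WT-constant regions absent from both K512R-AS lists (members, red, with exact 95% binomial intervals) and present in 1 of them (blue), by the poorest score percentile over the 4 WT and WT-AS lists. The share of members is 14.9% in the lowest class and 0.277% in the highest.

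The strongest members were examined one by one, since they are the ones that lay far from the lower end of the scores. The region chr19:2428163-2430950 (minus strand, 2788 bp) scored 3100 in both K512R lists, both WT-AS lists and both WT lists. It had no K512R-AS peak, but 1119 bp to its 3′ side a region at chr19:2426114-2427044 scored 3100 in both K512R-AS lists and had no peak in any other list. The plus-strand region chr11:75115716-75116344 (629 bp) also scored 3100 in all 6 lists outside K512R-AS. A peak 283 bp to its 3′ side was in all 8 lists, and the new region lay 727 bp to the 5′ side, at chr11:75114333-75114989, with 3100 in both K512R-AS lists and no peak in the other 6. At these positions a peak at 3100 in 1 place stood against a peak at 3100 in another. Many peaks of a list are tied at that score.

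The same arrangement held for other strong members. At chr16:47007406-47007625 (minus, 220 bp) the member scored 1550.94 and 1995.16 in the K512R lists, 3100 in both WT-AS lists, and 1606.53 and 2558.12 in the WT lists. A region 552 bp to its 3′ side, chr16:47006454-47006854, scored 3100 in both K512R-AS lists alone. At chr15:85234766-85234875 (minus, 110 bp) member scores were 1233.04 and 936.57 in K512R, 1642.84 and 1561.48 in WT-AS, and 919.04 and 1180.67 in WT. The new region there, chr15:85235201-85235351, lay 326 bp to the 5′ side and scored 1572.18 and 2001.83 in the K512R-AS lists. In each case the K512R lists held the member and not the new region, as the WT and WT-AS lists did.

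In 1 strong member the division ran between K512R and WT names, whatever the treatment. The region chr12:133287393-133287653 (plus, 261 bp) scored 3160.36 and 2277.00 in the WT-AS lists and 3100 in both WT lists, and had no peak in any of the 4 K512R and K512R-AS lists. Only 15 bp to its 3′ side, chr12:133287668-133288215 scored 3100 in all 4 K512R and K512R-AS lists and had no peak in the WT and WT-AS lists. By the record this sets arsenite-treated against untreated wild-type cells.

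A region in both K512R-AS lists and in no WT or WT-AS list was then counted within 3000 bp of every member on the same strand. Such a region stood beside 6 of the 14 members with every percentile above 75 (42.9%, 17.7 to 71.1), and beside 12 of 2896 equally scored WT-constant regions held by both K512R-AS lists (0.414%, 0.214 to 0.723). Beside members with a poorest percentile of 50 to 75 it was 1 of 22, from 20 to 50 it was 2 of 125, and up to 20 it was 2 of 318 (0.629%). Among regions held by both K512R-AS lists the share in that lowest class was 0.770%. Over all members it was 11 of 479 (2.30%), against 64 of 11444 (0.559%), and 446 such regions exist in all. The new region lay to the 5′ side of 6 of these 11 members and to the 3′ side of the other 5. The other members beside a new region are chr6:43471361-43474291, described below, and 5 chosen after their values were seen: chr22:38668505-38668670, chr1:226250408-226250512, chr4:159631094-159631822, chr7:6226681-6226747 and chr6:33545575-33545685. This count and its distance were also chosen after the strongest members had been inspected, so it describes them.

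Other strong members had no such region within 3000 bp. The minus-strand region chr19:17385222-17385373 (152 bp) scored 3100 in the second K512R list and in all 4 WT and WT-AS lists, with no peak in the first K512R list. Its nearest K512R-AS peak on the strand was 17567 bp away. The region chr3:119217368-119217774 (plus, 407 bp) scored 1544.83 in the second K512R list alone, 3100 in both WT-AS lists, and 2136.51 and 3100 in the WT lists. At chr11:117015000-117015134 (plus, 135 bp) scores were 2274.74 and 2628.54 in K512R, 3100 in both WT-AS lists, and 1649.62 and 3100 in WT, and the nearest K512R-AS peak lay 8023 bp to the 3′ side. The WT-AS scores of these 3 members were all 3100, unlike those of the bulk of the set.

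Some strong members scored lower in WT-AS than in WT. At chr17:40976173-40976396 (minus, 224 bp) scores were 2757.36 and 1498.37 in WT-AS and 3100 in both WT lists, with 3036.03 and 3100 in K512R. At chr18:11908200-11908796 (minus, 597 bp) they were 1181.11 and 1268.78 in WT-AS and 2334.51 and 3100 in WT, with 787.64 and 1734.99 in K512R. The groups WT-AS and WT do not overlap at either place. The remaining pair of the 12 best-scored members showed no such order. At chr18:57567192-57567467 (plus, 276 bp) scores were 664.91 and 698.02 in K512R, 996.09 and 1000.79 in WT-AS, and 991.13 and 938.46 in WT. At chr16:69166387-69166493 (minus, 107 bp) WT-AS scores of 913.79 and 1090.71 overlapped with WT scores of 833.26 and 1818.50.

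**Figure D3:**
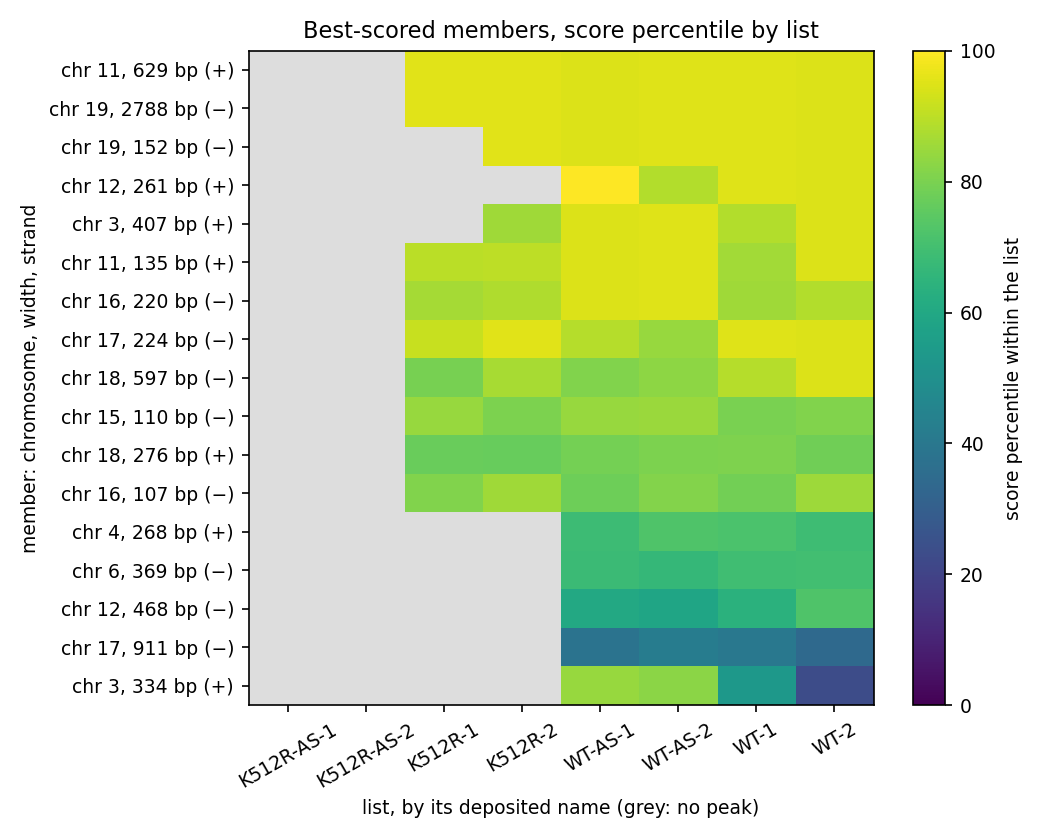
Score percentile within the list (colour) for the 12 best-scored members and, in the lower 5 rows, the next best-scored members without any K512R peak; columns are the lists and grey marks the absence of a peak. The K512R-AS columns are grey by the rule, and the upper rows are above the 75th percentile wherever they have a peak.

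Members without any K512R peak were few and mostly weak. Of the 18, the best-scored after the one on chromosome 12 was chr4:52709166-52709433 (plus, 268 bp), with 468.48 and 549.70 in WT-AS and 492.94 and 487.88 in WT. Next were chr6:31082865-31083233 (minus, 369 bp), with 449.68 and 368.53 in WT-AS and 427.20 and 509.60 in WT, and chr12:58026555-58027022 (minus, 468 bp), with 280.52 and 233.04 in WT-AS and 307.56 and 614.76 in WT. No K512R-AS peak on the same strand lay within 20000 bp of any of these 3, the nearest being 20170, 240512 and 85452 bp away. At chr17:8197751-8198661 (minus, 911 bp) all 4 scores lay between 71.55 and 94.09. The region chr3:14239536-14239869 (plus, 334 bp) stood apart, with 1648.13 and 1249.63 in WT-AS against 168.94 and 40.45 in WT.

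Members were slightly narrower than the regions held by both K512R-AS lists at the median, 184 against 204 bp, but more of them were wide. Over 1000 bp were 61 members (12.7%), against 7.80% of the regions in both K512R-AS lists, and over 2000 bp 22 members (4.59%), against 1.56%. Read the other way, 22 of the 241 WT-constant regions over 2000 bp were members (9.13%, 5.81 to 13.5), where 4.18% of those over 100 and up to 200 bp were. Within score classes the order of these 2 width classes was kept. With a poorest percentile up to 20 the shares were 21.3% and 13.8%, from 20 to 50 they were 8.70% and 2.32%, and above 50 they were 4.80% (6 of 125) and 0.465% (9 of 1937). The member peaks had mean widths of 442 and 432 bp in the K512R lists, 405 and 404 bp in WT-AS, and 426 and 418 bp in WT.

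The widest members included several with low WT-AS scores. The widest, chr6:13786781-13791096 (minus, 4316 bp), scored 284.49 and 620.86 in K512R, 37.50 and 77.21 in WT-AS, and 274.42 and 488.27 in WT, so the WT-AS lists lay below all others. A peak at 3100 in all 8 lists stood 1014 bp to its 5′ side. At chr12:65856935-65860687 (plus, 3753 bp) scores were 893.04 and 1029.83 in K512R, 193.10 and 286.18 in WT-AS, and 582.04 and 282.72 in WT. The K512R lists were the highest there and the other pairs overlapped. At chr1:151843735-151847404 (minus, 3670 bp) the WT-AS scores were 13.38 and 76.93, against 120.50 and 157.65 in WT. The order was opposite at chr6:10980993-10984139 (minus, 3147 bp), with 183.56 and 173.04 in WT-AS against 20.13 and 22.37 in WT, and at chrX:128937399-128940462 (minus, 3064 bp), with 247.16 and 353.87 in WT-AS against 142.84 and 145.06 in WT.

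At chr6:43471361-43474291 (plus, 2931 bp) the WT-AS scores of 95.78 and 128.78 lay below the WT scores of 486.90 and 419.39. A new region only 115 bp to its 5′ side scored 190.60 and 57.89 in the K512R-AS lists. The region chr16:30613879-30616768 (minus, 2890 bp) had scores of 2618.75 and 873.35 in K512R, 293.91 and 409.87 in WT-AS, and 391.22 and 1680.54 in WT. The last of the 8 widest, chr14:31562825-31565624 (plus, 2800 bp), was weak in all lists that held it, at 14.16 and 21.60 in WT-AS and 27.87 and 33.42 in WT, with 73.90 in the second K512R list alone.

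Most members had lower percentiles in the WT-AS lists than in the WT lists. Both WT-AS percentiles lay below both WT percentiles in 281 of 479 members (58.7%) and above them in 41 (8.56%). In the regions held by both K512R-AS lists the shares were 40.5% and 29.3%. For members found in both K512R lists, the median difference of WT-AS minus WT was -21.34 percentile points, against -1.75 points for the 10872 regions of all 8 lists. The gap was present at like levels in WT: among regions with a mean WT percentile of 40 to 60 the difference was -29.03 points in 105 members and -0.39 points in 2313 regions of all 8 lists, and from 60 to 80 it was -37.54 points in 95 members and -7.22 points in 3166 regions of all 8 lists. The rule asks for a WT-AS peak but sets no level for it. Members and the compared regions are, however, split by their K512R-AS peaks. The WT-AS and K512R-AS lists are of the same kind, both arsenite-named and both input by the record. The choice can thus favour low WT-AS scores in members, and its part in the gap was not tested. By the record, WT-AS minus WT sets input against immunoprecipitate of untreated cells.

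In the K512R lists, which the rule did not use, the members found in both of them had higher percentiles than in WT at the median. Both K512R percentiles lay above both WT percentiles in 193 of the 391 members found in both K512R lists (49.4%) and below them in 28 (7.16%), against 40.4% and 12.4% of the 10872 regions of all 8 lists. The median difference of K512R minus WT was 7.55 points in members and 0.58 points in those regions. With a mean WT percentile of 20 to 40 it was 10.69 against 6.61 points, from 40 to 60 it was 7.92 against 2.45 points, and from 60 to 80 it was 5.92 against 1.26 points. Under 20 it was 14.45 against 14.77 points, and from 80 it was 1.53 against 0.58 points, so the lowest class showed no higher value in members. From 80, K512R lay above WT in every list in 51.6% of members and in 56.8% of the other regions. The K512R lists are the longest of the 8, with 24183 and 25111 peaks, which raises the percentile of a peak of given rank. The part of list length in these differences was not tested. Regions lacking a peak in either K512R list were left out. This kept 391 of 479 members and 10872 of the 11444 regions held by both K512R-AS lists, so a larger share of members was dropped. Leaving out absent peaks can raise the K512R values of members, and its part in the differences was not tested either.

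Regions around the members, to which the rule was not applied, had lower scores in both arsenite-named pairs. On the same strand within 10000 bp of 189 members lay 277 regions that had a peak in all 8 lists. Their median percentile was 51.0 and 52.9 in K512R-AS, 74.1 and 75.5 in K512R, 56.6 and 58.7 in WT-AS, and 70.2 and 71.1 in WT. All 4 arsenite-named lists lay below all 4 others. The 10595 other regions of all 8 lists had 67.2 and 68.9 in K512R-AS, 71.6 and 72.9 in K512R, 66.8 and 68.3 in WT-AS, and 70.3 and 70.2 in WT. The WT medians of the near and the other regions thus differed by under 1 point while those of the K512R-AS lists were lower near members.

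Per region, the median difference of K512R-AS minus K512R was -18.48 points near members, against -1.10 points elsewhere. For WT-AS minus WT it was -12.26 against -1.43 points. K512R-AS lay below WT-AS by much less, with a median difference of -1.49 points near members and -0.48 points elsewhere. In 102 of the 277 near regions (36.8%) both K512R-AS percentiles lay below both WT-AS ones and in 48 (17.3%) above, against 34.2% and 26.1% elsewhere. Taken list by list, near minus other regions came to -16.21 and -16.01 points in K512R-AS, 2.50 and 2.57 points in K512R, -10.25 and -9.60 points in WT-AS, and -0.08 and 0.90 points in WT. The K512R lists thus lay above the WT lists and the K512R-AS lists below the WT-AS lists, without overlap. By the record, arsenite-named against untreated-named sets input against immunoprecipitate, and K512R-named against WT-named sets arsenite against no treatment. These regions were picked for lying near members, which lack K512R-AS peaks by the rule, so the choice can favour low K512R-AS values, and no test of them is given. The WT-AS lists were also part of the rule, which asks for a peak in each.

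**Figure D4:**
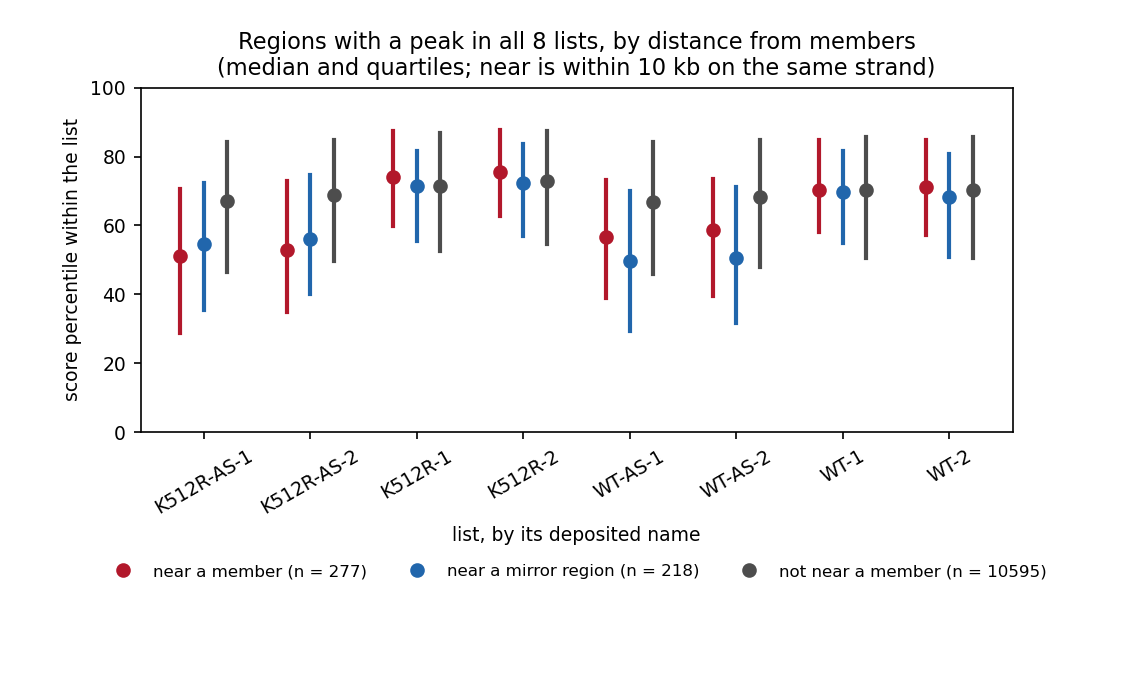
Score percentile within each list (vertical axis) of regions with a peak in all 8 lists that lie within 10000 bp of a member (red), within 10000 bp of a region of the mirror pattern (blue), or away from members (grey), by list. Points are medians and lines span the quartiles. Near members the medians are 51.0 to 58.7 in the 4 arsenite-named lists and 70.2 to 75.5 in the 4 others.

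The share of members with a nearby peak was also lower in the arsenite-named lists. Other members were left out here, since they lack K512R-AS peaks by the rule. A peak of the list on the same strand within 5000 bp stood beside 35.9% and 40.9% of members in the K512R-AS lists, 58.0% and 58.2% in K512R, 39.7% and 43.2% in WT-AS, and 52.6% and 52.8% in WT. K512R-AS and WT-AS overlap, and both lie below K512R and WT. After the share for regions held by both K512R-AS lists was taken off, the values were -15.51 and -11.21 points in K512R-AS, 6.41 and 6.18 points in K512R, -11.49 and -8.55 points in WT-AS, and positive but at most 2.33 points in WT. Both sets are defined by their K512R-AS peaks, so these values are a description too.

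A K512R-AS peak of either list lay within 1000 bp of 48 of the 479 members on the same strand. Another K512R-AS peak lay that close to 1038 of the 11444 regions held by both lists (9.07%). Within 500 bp the shares were 1.88% and 0.935%. The order turned at larger distances, with 43.4% of members and 54.3% of those regions at 5000 bp, and 58.5% and 70.3% at 10000 bp. On the opposite strand 10 members (2.09%) had a K512R-AS peak within 1000 bp, and 0.559% of the regions held by both did. Only 1 member overlapped a K512R-AS peak of the other strand.

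Peaks in a list are numbered in order along each chromosome, and the lists hold 49.7% to 52.1% as many peaks as the highest number, so a peak can have been called and left out of a list. At 78 of the 476 members that have a listed peak on both sides in the first K512R-AS list (16.4%) the flanking numbers were consecutive, so no numbered peak was missing there. In the second it was 83 of 475 (17.5%), and in both lists 38 of 479 members (7.93%). Those 38 include the members at chr11:75115716, chr19:17385222, chr15:85234766 and chr16:69166387. At the other members a number was missing or a flanking peak was lacking in at least 1 list, and whether a peak at the member was among those left out was not tested. Over all regions absent from a K512R-AS list the shares were close to these, at 16.9% and 17.2%.

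Where each of the 4 WT and WT-AS lists held 1 peak in a member, both ends were identical over the 4 lists in 381 of 474 members (80.4%). For regions held by both K512R-AS lists the share was 82.8%. Member peaks thus had shared ends about as often as the others.

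Members lay on every chromosome. The share of WT-constant regions that were members was highest, among chromosomes with over 100 such regions, on chromosome 22 with 26 of 338 (7.69%, 5.09 to 11.1) and chromosome 17 with 41 of 612 (6.70%, 4.85 to 8.98). On chromosome 21 it was 1 of 132 (0.758%, 0.0192 to 4.15). Intervals are per chromosome and are not adjusted for the number of chromosomes. By strand, 3.57% of plus-strand and 3.92% of minus-strand regions were members.

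**Figure D5:**
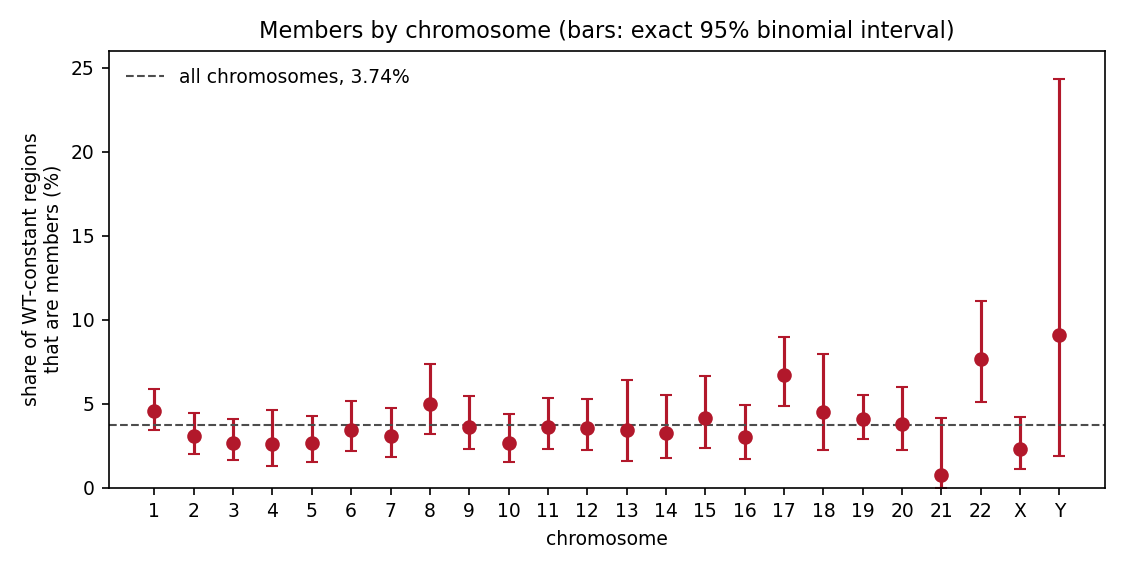
Share of WT-constant regions that are members (vertical axis, per cent) by chromosome, with exact 95% binomial intervals; the dashed line is the share over all chromosomes, 3.74%. Chromosomes 17 and 22 have intervals that lie above the line.

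Most members stood alone: 410 had no other member within 10000 bp on their strand, and 69 (14.4%) lay in 33 pairs and 1 run of 3. That run lay at chr22:32886874-32887367, chr22:32888688-32889268 and chr22:32891480-32891517, all plus strand. Its middle region scored 74.68 and 115.47 in K512R, 103.89 and 38.68 in WT-AS, and 108.51 and 74.30 in WT. A region held by all 8 lists lay 2614 bp to the 3′ side of the run. It scored 45.22 and 248.58 in K512R-AS, 781.66 and 772.48 in K512R, 1091.85 and 571.36 in WT-AS, and 323.96 and 421.72 in WT. Its raw scores were thus lowest in K512R-AS. Pairs on chromosome 1 lay at 1447523 and 1451392 (plus), 19651127 and 19652739 (plus), and 21582440 and 21586764 (minus). Beside the first of these pairs, the region at 1454301 to 1454370 scored 26.64 in the first K512R-AS list and had no peak in the second, with 1134.24 and 669.58 in K512R, 81.82 and 232.98 in WT-AS, and 601.51 and 972.92 in WT. In raw scores the peaks of both arsenite-named pairs were below those of both others there. No source says whether raw scores compare between lists.

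The mirror pattern, a peak in all 4 K512R and K512R-AS lists and in neither WT-AS list, was met by 447 regions, 3.38% of the 13228 regions in all 4 K512R and K512R-AS lists. The 479 members at 3.74% were thus close to it in number. Over all regions in both WT-AS lists, 7.86% had no peak in either K512R-AS list. Mirror regions had a median percentile of 21.3 and 23.2 in the K512R-AS lists that held them, as members had 21.7 and 24.1 in the WT-AS lists. The 218 regions of all 8 lists within 10000 bp of a mirror region, of which 4 also lay near a member, likewise had lower medians in the arsenite-named lists: 54.5 and 56.0 in K512R-AS and 49.8 and 50.6 in WT-AS, against 71.6 and 72.4 in K512R and 69.7 and 68.3 in WT. Near members the K512R-AS medians lay below those of WT-AS, and near mirror regions above, a direction that the choice of the regions favours. In the WT lists, which the mirror rule leaves out, the mirror regions held there had medians of 38.9 and 39.6. Members had 55.1 and 55.8 in the K512R lists that held them, which their own rule leaves out. In the untreated-named lists that each rule uses, mirror regions had 38.0 and 42.2 in K512R and members 43.1 and 44.1 in WT.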

How the data were processed

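Peaks were taken from 8 lists of an RNA immunoprecipitation study as deposited, 1 per sample. By the sample record the WT-AS and K512R-AS lists belong to input samples. The submitters' processing notes name cutadapt 1.9.3, HISAT2 2.0.4 and hg19, and per the peak names MACS called the peaks. The sources used here do not give its version, control library, threshold or strand assignment. The score deposited by the authors was ranked within each list, ties averaged, and is also printed as it stands. Same-strand peaks with an overlap of 1 bp or more formed a region, and a region's percentile in a list is that of its best peak. Presence in the lists the rule used was not tested. The surroundings of members are described without a test, since their choice rests on the same lists. Joining, rule and distances were tested on simulated intervals.

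The members, lists and measures were chosen with earlier results of these data known. Regions named are the 12 members with the best poorest percentile, the 8 widest, the 6 best without a K512R peak and up to 4 runs, with others said to be chosen later. Planned counts by gene and U content were not run, since the gene table used here is of another build. Calculations ran in scipy 1.17.1, pandas 2.3.3 and numpy 2.4.6 under Python 3.11.15, with matplotlib 3.10.9 for plots.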

Additional observations from a re-analysis of the deposited data

Results flagged for a closer look

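In regions held by all 8 lists near members, the K512R lists lay above the WT lists and the K512R-AS lists below the WT-AS lists, each taken relative to other such regions. The median percentile near members, less that of other such regions, was 2.13 points higher in the K512R than in the WT lists and fell by 6.18 points in the K512R-AS relative to the WT-AS lists. Per region, K512R-AS minus WT-AS had a median of only -1.49 points near members and -0.48 points elsewhere. The replicate lists of each pair did not overlap with those of the pair they were set against, and the difference between these 2 effects was not tested. The members near these regions were selected on WT-AS and K512R-AS lists, and the part of that choice in the second value was not tested. That choice favours the sign of the second value. Near mirror regions, whose choice favours the other sign, K512R-AS minus WT-AS had a median of 2.13 points per region. By the record all 8 lists come from wild-type cells, and both values set arsenite against no treatment.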

How the results depend on the processing

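When only peaks scoring 50 or more were used there were 294 members, 3.23% of the WT-constant regions, and 257 were in both K512R lists. Asking for no K512R-AS peak within 1000 bp gave a share of 3.37%. Without 1 list each, members numbered 591 to 1010, their share 4.32% to 7.89% and those in both K512R lists 431 to 854, since fewer lists then had to meet the rule. The mirror count, in alternatives chosen after seeing the data, was 552 to 1003. The WT-AS median of members was 38.5 as a raw score and 22.9 as a percentile. K512R-AS peaks lay within 500 bp of 9 members, within 5000 bp of 208 and within 10000 bp of 280 (58.5%, against 70.3% of regions held by both K512R-AS lists). Other joins, a score of 20 or more, equal list lengths and units of WT peaks gave 412 to 487 members. The arsenite-named minus untreated-named difference near members ranged from -15.63 to -11.64 points over other distances and lists left out. No paired analysis was possible because no test of the members or of their surroundings is given, their choice resting on the same lists. Depth is unknown, so absence from a list is no measure of absent RNA.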
